A study of Homo sapiens with 27 samples.

Results

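Matrix metalloproteinases (MMPs) and their tissue inhibitors (TIMPs) were followed through 9 groups of 2 human cancer cell lines by RNA sequencing. The set holds 10 genes of the 24566 in the count table, namely MMP1, MMP2, MMP3, MMP9, MMP10, MMP13, MMP14, TIMP1, TIMP2 and TIMP3, found by symbol through their Entrez IDs. It was selected because MMP1 rose under each single treatment, and by less than the sum of both effects under the combination, in one of the cell lines, MDA-MB-231. The values of MMP1 in MDA-MB-231 are therefore a description and carry no test.

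MMPs are zinc-dependent endopeptidases, most of them secreted as inactive proenzymes, that cleave collagens and other proteins of the extracellular matrix. TIMPs bind the active site of MMPs and block them. In carcinomas, both families are studied for their part in invasion. MMP1 and MMP13 are collagenases that cut fibrillar collagen, MMP2 and MMP9 are gelatinases, MMP3 and MMP10 are stromelysins, and MMP14 is anchored in the membrane, where it activates proMMP2 in a complex with TIMP2. Much of the control of these genes is known to be transcriptional, with AP-1 sites in the promoters of several members.

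MDA-MB-231 is an established line from a human breast adenocarcinoma, and A431 an established line from a human epidermoid carcinoma. All cells were treated for 48 h. Compound Kushen Injection (CKI), a herbal extract used as an injection, was given at 1 mg/ml alone or with a chemotherapeutic drug. MDA-MB-231 groups were untreated, CKI, 5-FU (fluorouracil, an antimetabolite) at 10 µg/ml, and CKI plus 5-FU. A431 groups were untreated, vehicle control, CKI, doxorubicin (an anthracycline that damages DNA), and CKI plus doxorubicin. The labels do not tie a dose of doxorubicin to the libraries and do not name the vehicle. Each group had 3 biological replicates per the series design, which does not say whether they were separate cultures, so p-values measure only the spread between these libraries.

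Libraries held 17757206 to 22809339 counts. Untreated MDA-MB-231 replicate 1 stood apart from the other untreated replicates, with a chi-square per degree of freedom over genes of 75.0 and 86.7 against 2.73 between the others, and its difference from them followed the GC content of genes (Spearman's rho = -0.66 across 13965 genes, which are not independent). In this library MMP9 was lower by 1.29 and MMP14 by 0.66, and MMP3 was higher by 1.10, MMP10 by 0.80 and TIMP1 by 0.35, on the log2 scale. Vehicle control replicates differed among themselves by 10.4 to 29.9 on the same measure, against 1.88 to 5.71 in the other A431 groups. The lines matched their labels: the summed level of 8 epidermoid markers was 9702 to 10860 CPM (counts scaled to a common library size) in untreated A431 and 602 to 794 in untreated MDA-MB-231, while 4 mesenchymal-like markers summed to 3348 to 3638 CPM in untreated MDA-MB-231 and 777 to 843 in untreated A431. Markers of other cells that make MMPs were low in untreated cells. The 7 fibroblast genes summed to at most 32.8 CPM, the 6 leukocyte genes to at most 20.1 in MDA-MB-231 and 86.5 in A431, and the 3 endothelial genes to at most 25.6. DCN of the fibroblast list had at most 3 counts in an untreated library, and PTPRC of the leukocyte list had 0 in untreated A431 and at most 10 in untreated MDA-MB-231. The sums of these 2 lists thus came almost wholly from their other genes.

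Of the members, MMP10, MMP1, MMP3 and MMP13 lie in a cluster of 9 MMP genes on chromosome 11 (GRCh37), which spans 435.2 kb with every gene on the reverse strand. MMP1 occupies chr11:102660132-102668891. The start of MMP10 lies 17.5 kb from that of MMP1, that of MMP3 45.4 kb, and that of MMP13 157.6 kb. The others lie on chromosome 16 (MMP2), 20 (MMP9), 14 (MMP14), X (TIMP1), 17 (TIMP2) and 22 (TIMP3). Because the libraries were unstranded, reads cannot be assigned to one strand where genes overlap. Of the exon bases of MMP1, 8.14% are shared with WTAPP1 on the opposite strand, which had 0 to 12 counts per library. Of those of MMP9, 18.41% are shared with SLC12A5-AS1 (not analysed here), and of those of TIMP2, 9.52% are shared with other genes, of which CEP295NL had 0 to 68 counts.

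RefSeq promoter windows (GRCh38.p14) were matched for 4 of the 10 members: MMP10, MMP14, TIMP1 and TIMP3. The 250 bases before the start are shown for MMP10 and TIMP3, since MMP10 was higher and TIMP3 lower under both chemotherapeutic drugs. MMP10 had all libraries of a group over the filter on low counts (near 0.499 CPM in MDA-MB-231 and 0.531 in A431) only with these drugs. The filter therefore favoured its rise. Capitals mark matches on either strand to the letters TGANTCA of the AP-1 motif, TATAAA of the TATA box and GGGCGG of the GC box, and no match of one motif overlaps that of another.
MMP10, chr11:102780629-102780878, reverse strand: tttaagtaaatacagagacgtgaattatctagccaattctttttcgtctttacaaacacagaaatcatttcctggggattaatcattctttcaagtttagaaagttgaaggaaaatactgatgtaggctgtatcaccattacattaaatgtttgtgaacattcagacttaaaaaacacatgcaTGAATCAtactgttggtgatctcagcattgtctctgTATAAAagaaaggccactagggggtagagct
TIMP3, chr22:32801455-32801704, forward strand: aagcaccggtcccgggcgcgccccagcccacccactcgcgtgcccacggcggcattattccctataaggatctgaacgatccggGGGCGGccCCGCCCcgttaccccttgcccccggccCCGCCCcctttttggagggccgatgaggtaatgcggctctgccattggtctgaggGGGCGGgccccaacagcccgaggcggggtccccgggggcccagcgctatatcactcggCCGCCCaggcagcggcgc
The MMP10 window holds 1 AP-1 match from 67 to 61 bases before the start and 1 TATA box from 31 to 26 bases before it, and its GC content is 34.4%. The TIMP3 window holds neither, but 5 GC boxes, at a GC content of 72.4%. The MMP14 window holds 1 GC box and the TIMP1 window 2, and neither holds the other motifs. Among 35116 RefSeq promoters of this length, 6.57% hold the AP-1 motif, 10.7% the TATA box and 42.6% the GC box, and the median GC content is 58.0%. These matches describe the sequence and do not show binding.

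Among the 7 MMP genes of the set, MMP14 was the most abundant transcript in untreated cells of both lines, and several other members differed between the lines. Per length of exons (FPKM, fragments per kilobase of exon, scaled to library size), MMP14 reached 318 ± 76.4 (SD, n = 3) in MDA-MB-231 and 215 ± 12.1 in A431, which was 96.8% and 94.5% of the summed FPKM of the 7 MMP genes. Of these 7 genes, MMP1 came next in MDA-MB-231 with 10.1 ± 0.700 FPKM, and MMP2 in A431 with 9.59 ± 0.351. Outside the set, MMP15 had 102 CPM in untreated A431, where MMP2 had 45.3 CPM. Among inhibitors, TIMP1 was highest per length in both, at 227 ± 33.9 and 117 ± 4.62 FPKM.

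MMP2, the gelatinase that MMP14 activates, had 759, 787 and 749 counts in untreated A431 and 4, 8 and 6 in untreated MDA-MB-231. MMP1 went the other way, with 18, 20 and 11 counts in A431 and 572, 569 and 556 in MDA-MB-231. Neither gene's values overlapped between the lines. On the log2 scale, A431 exceeded MDA-MB-231 by 7.24 ± 0.17 (SE) in MMP2, 3.89 ± 0.39 in MMP9 and 2.54 ± 0.31 in MMP13, and was lower in TIMP2 (-2.11 ± 0.06) and TIMP3 (-1.58 ± 0.05), with adjusted p-values of at most 5.3e-08. The difference in MMP1 was -4.84, given without a test. Thus 5 of the 9 members other than MMP1 were DE genes (adjusted p under 0.05 and absolute log2 fold change over 1), where 41.7% of the 16669 genes tested were. No MDA-MB-231 library was over the filter on low counts for MMP2, which entered this fit through A431. For MMP9 and MMP13, all libraries were over it in every A431 group, but in MDA-MB-231 only with 5-FU. The filter favoured higher values in A431 for these genes, so the count is not read against the background. TIMP1 at -0.96 ± 0.07 stayed just inside the fold threshold, MMP14 differed by -0.57 ± 0.11 and MMP10 by -0.70 ± 0.82 (adjusted p = 0.44). MMP3 had 0 counts in all untreated A431 libraries and 4 in total in untreated MDA-MB-231, too few for a fold. The median over the 8 members other than MMP1 and MMP3 was -0.63, beside 0.06 over all genes. Leaving out untreated MDA-MB-231 replicate 1 changed none of these 5 calls. TIMP1 passed the fold threshold in 8 of 16 alternatives, among them leaving out untreated MDA-MB-231 replicate 2 (-1.004) or 3 (-1.04), and reached -1.46 with GC and length offsets and the replicate block.

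**Figure D1:**
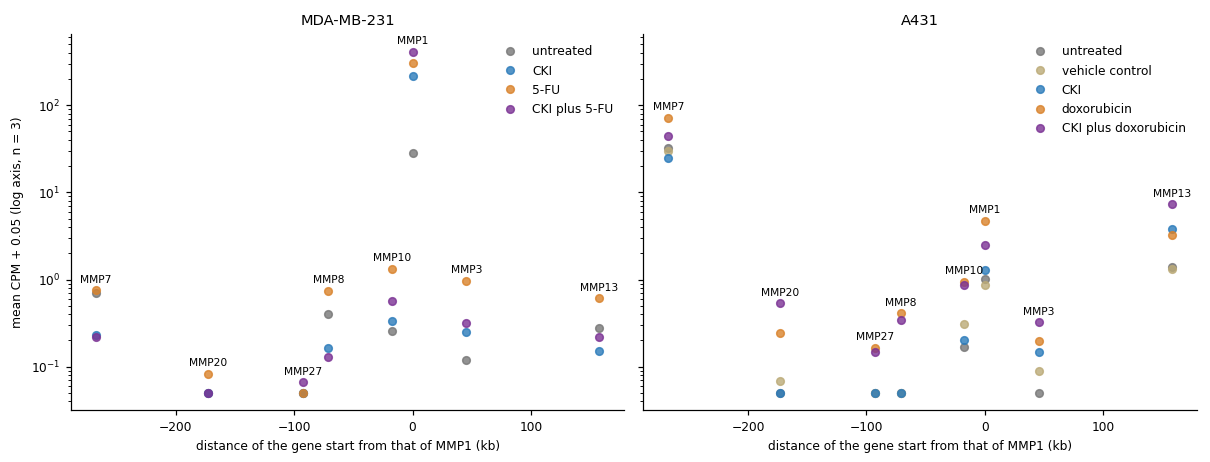
Mean CPM plus 0.05 (log axis, n = 3) of 8 family genes of the chromosome 11 cluster, plotted against the distance of each gene start from that of MMP1 in kb, with one colour per group. In MDA-MB-231, MMP1 stands above its neighbours in every group, and in A431 MMP7 is the highest in every group, with 24.5 to 71.8 CPM.

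MMP1, the interstitial collagenase, was higher under CKI, 5-FU and their combination in MDA-MB-231, which is the pattern the set was selected on. Its level was 30.3, 26.6 and 27.7 CPM in untreated libraries, 210.3, 218 and 219.5 with CKI, 300.1, 299.6 and 313 with 5-FU, and 391, 422 and 425 with both. The 4 groups did not overlap. Group means were 28.2 ± 1.91 (SD, n = 3), 216 ± 4.87, 304 ± 7.76 and 413 ± 18.8 CPM, or 7.66, 10.8 and 14.6 times the untreated mean. Adding the separate increases would give 492 CPM, of which the combination reached 83.9%, and multiplying the separate folds would give 2329 CPM, of which it reached 17.7%. On the log2 scale of the fit, MMP1 was higher by 2.94 with CKI and 3.43 with 5-FU, and the combination exceeded 5-FU by 0.44 and CKI by 0.94. In bulk RNA, more cells that express a gene and more RNA of it per cell cannot be told apart.

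The stromelysins MMP3 and MMP10, which lie beside MMP1, together with MMP9 and MMP13, were barely detected in untreated MDA-MB-231 and were highest under 5-FU. MMP3 had 3, 0 and 1 counts in untreated libraries, 5, 4 and 3 with CKI, 14, 24 and 19 with 5-FU, and 7, 8 and 2 with both. MMP10 had 6, 2 and 4 counts untreated, 8, 6 and 3 with CKI, 32, 16 and 33 with 5-FU, and 12, 8 and 13 with both. In both genes every 5-FU library lay above every library of the other groups.

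For MMP9 the counts were 2, 5 and 13 untreated, 9, 6 and 7 with CKI, 30, 15 and 31 with 5-FU, and 9, 11 and 14 with both. MMP13 had 4, 5 and 5 counts untreated, 2, 1 and 3 with CKI, 11, 11 and 13 with 5-FU, and 1, 6 and 4 with both. Again the 5-FU libraries were the highest, although MMP9 in 5-FU replicate 2 exceeded the nearest library of another group by only 1 count. Levels this low (0.07 to 1.29 CPM as group means, where 3 counts are about 0.15 CPM) are close to the limit of detection, whereas MMP1 had at least 556 counts.

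Compared to untreated, 5-FU raised MMP3 by 3.66 ± 0.61 (log2, SE; adjusted p = 0.00027), MMP10 by 2.66 ± 0.44 (0.00029), MMP9 by 1.85 ± 0.46 (0.0042) and MMP13 by 1.24 ± 0.40 (0.019). For these 4 genes, 5-FU was the only group with all its libraries over the filter on low counts, so the filter favoured a rise there. Their number is therefore not evidence about the family. MMP3 and MMP13 passed through this group alone and were bound to be higher there. MMP9 had 6 libraries over the filter and MMP10 5. The fold of MMP3 rests on 4 counts in all untreated libraries. MMP13 missed the threshold with DESeq2 (adjusted p = 0.059) and without 5-FU replicate 3 (0.058).

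The same 4 genes were lower with CKI plus 5-FU than with 5-FU alone. The filter favours this direction as well, since only with 5-FU alone were all libraries over it. The log2 difference from 5-FU alone was -1.75 ± 0.45 in MMP3 (adjusted p = 0.0064), -1.66 ± 0.42 in MMP13 (0.0059), -1.30 ± 0.36 in MMP10 (0.0099) and -1.17 ± 0.41 in MMP9 (0.031). MMP1 did not share this direction, at 304 CPM with 5-FU and 413 with both. MMP9 lost its call without 5-FU replicate 1 (adjusted p = 0.095) or 3 (0.11), or without CKI plus 5-FU replicate 1 (0.099) or 2 (0.086). CKI alone gave log2 differences from untreated of 1.49 ± 0.84 in MMP3, 0.48 ± 0.60 in MMP10, 0.13 ± 0.58 in MMP9 and -1.18 ± 0.58 in MMP13, with adjusted p-values from 0.14 to 0.88. Without untreated replicate 1, MMP3 was called (2.76, adjusted p = 0.044). MMP2 stayed at 0 to 8 counts in every MDA-MB-231 library, under the filter.

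**Figure D2:**
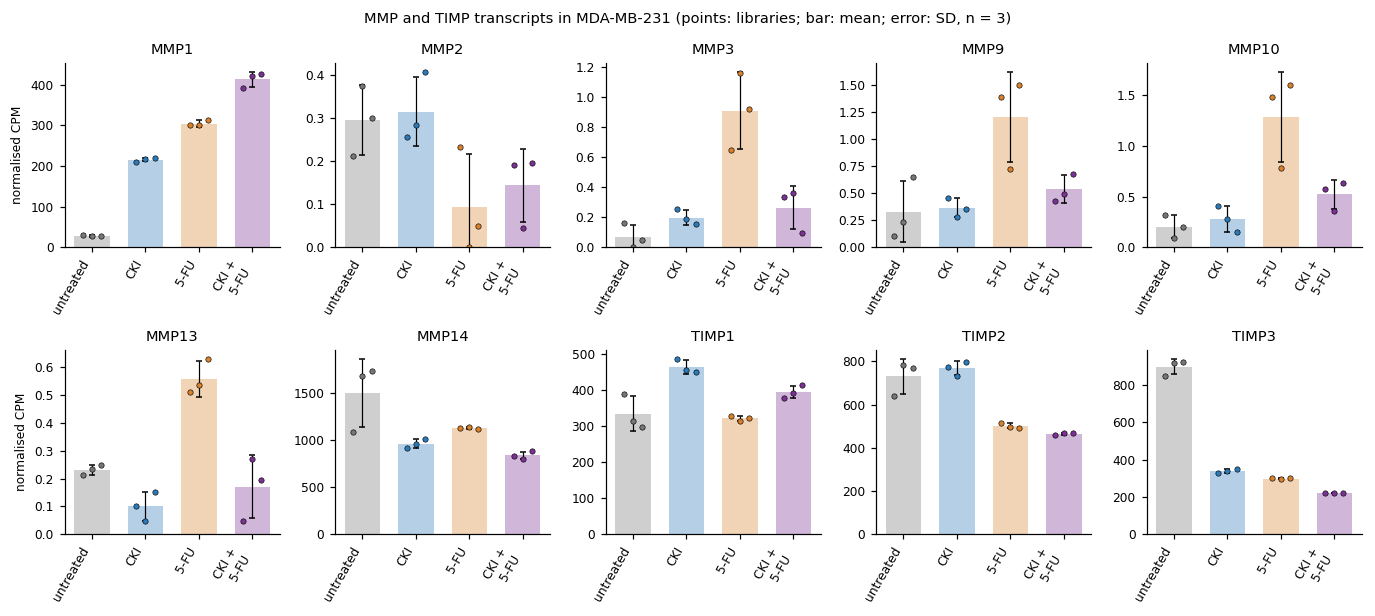
Normalised CPM of the 10 members in the 12 MDA-MB-231 libraries (points), with the mean (bar) and SD (n = 3) of each group; the vertical scale starts at 0 and differs between genes. MMP1 rises from 28.2 to 413 CPM, TIMP3 falls from 896 to 221 CPM, and MMP3, MMP9, MMP10 and MMP13 are highest with 5-FU, at group means of at most 1.29 CPM.

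TIMP3, an inhibitor that is bound to the matrix, was the one DE gene among TIMP1, TIMP2 and TIMP3 in MDA-MB-231, and it fell under CKI and under 5-FU. It had 849, 917 and 923 CPM untreated, 331, 340 and 350 with CKI, 299, 293 and 301 with 5-FU, and 222, 222 and 219 with both. No group overlapped another. The difference from untreated was -1.40 ± 0.05 with CKI (log2, SE; adjusted p = 5.7e-09) and -1.59 ± 0.05 with 5-FU (1.1e-09). The combination differed from 5-FU by -0.43 ± 0.05 (2.9e-05) and from CKI by -0.62 ± 0.05 (6.7e-06), within the fold threshold. Its interaction of CKI and 5-FU, that is, the effect of CKI with 5-FU minus that without, was 0.97 ± 0.07 (adjusted p = 4.2e-06), and 1.00 without untreated replicate 1, which took it past the threshold.

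TIMP1 and TIMP2, both soluble inhibitors, and MMP14 changed by less than 2-fold. TIMP1 had 390, 315 and 298 CPM untreated, 486, 456 and 451 with CKI, 328, 314 and 322 with 5-FU, and 378, 392 and 413 with both. It differed from untreated by 0.47 ± 0.09 (adjusted p = 0.0013) with CKI and by -0.06 ± 0.09 (0.59) with 5-FU. TIMP2 had 638, 785 and 770 CPM untreated, 775, 735 and 798 with CKI, 515, 498 and 492 with 5-FU, and 460, 468 and 468 with both. Its difference from untreated was 0.07 ± 0.07 (0.47) with CKI and -0.54 ± 0.07 (5.4e-05) with 5-FU.

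MMP14 had 1082, 1680 and 1734 CPM in untreated libraries, 917, 956 and 1009 with CKI, 1130, 1136 and 1118 with 5-FU, and 830, 802 and 882 with both. The lowest untreated value is that of replicate 1, which lay below the 5-FU libraries and above the CKI libraries. With all libraries MMP14 differed from untreated by -0.64 ± 0.13 (adjusted p = 0.003) under CKI and -0.41 ± 0.13 (0.02) under 5-FU, and without replicate 1 by -0.83 and -0.60.

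Counted over the 8 members other than MMP1 that passed the filter, 1 was a DE gene under CKI (TIMP3) and 5 under 5-FU, where 5.96% and 13.3% of the 13999 genes tested were. The combination differed from 5-FU in 4 (background 9.77%) and from CKI in 0 by edgeR (3.81%). In the latter 3 members, TIMP1, TIMP2 and TIMP3, had adjusted and unadjusted p-values under 0.05 within the fold threshold. The interaction was called in 1 member (background 6.84%), MMP3 at -3.24 ± 0.95 (adjusted p = 0.022), a gene that passed the filter only through 5-FU alone. This call was lost without CKI replicate 1 (-3.03, adjusted p = 0.067). MMP10 was called besides without 5-FU replicate 2 (-2.04, adjusted p = 0.036) or untreated replicate 1 (-2.23, 0.022), and MMP9 without untreated replicate 3 (-2.21, 0.028). MMP1 in these contrasts was the reason for the selection, and in 4 members only 5-FU alone had all libraries over the filter. The counts and medians are therefore not read against the background. Medians over the 8 members were 0.10 under CKI, 0.59 under 5-FU, -0.80 for the combination against 5-FU and 0.11 against CKI. Over all genes they lay between -0.01 and 0.01. Under 5-FU the members that passed the filter in every group stood at -0.41 (MMP14), -0.06 (TIMP1), -0.54 (TIMP2) and -1.59 (TIMP3). Without untreated replicate 1 the count was 2 under CKI, 5 under 5-FU and 3 for the interaction. The sum of the 4 mesenchymal-like markers also moved, to between 2410 and 2458 CPM under CKI, 2570 and 2674 under 5-FU, and 2303 and 2331 under both. The fibroblast sum was 39.8 to 43.2 CPM with CKI, against 21.8 to 32.8 untreated. With CKI, 1 of the 7 fibroblast genes (DCN) was at 0 and the others carried the sum. The endothelial sum was 20.2 to 22.1 with 5-FU against 7.52 to 11.2, and the leukocyte sum at most 13.8 in treated groups. Their part in these results was not tested.

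In A431 cells CKI raised MMP2, MMP13 and TIMP2 and lowered MMP9, whereas MMP1 was not called. TIMP2 had 167, 167 and 168 CPM in untreated libraries, 194, 191 and 181 in vehicle control, and 612, 623 and 648 with CKI. CKI exceeded untreated by 1.91 ± 0.05 (log2, SE; adjusted p = 1.8e-18) and vehicle by 1.74 ± 0.05 (1.1e-17). For MMP2 the levels were 45.3, 43.4 and 47.2 CPM untreated, 34.0, 35.2 and 39.1 with vehicle, and 109, 116 and 112 with CKI, a difference of 1.31 ± 0.06 (1.4e-14) from untreated and 1.64 ± 0.06 (4.6e-16) from vehicle. All CKI libraries lay above all libraries of both control groups in these genes.

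MMP13, a collagenase, had 21, 32 and 16 counts untreated, 25, 25 and 19 with vehicle, and 72, 76 and 74 with CKI, which was higher than untreated by 1.45 ± 0.19 (adjusted p = 3.8e-07) and than vehicle by 1.55 ± 0.19 (1.5e-07). MMP9 had 88, 82 and 80 counts untreated and 26, 36 and 28 with CKI, a difference of -1.71 ± 0.27 (7.7e-06). In vehicle control it had 43, 106 and 108 counts, and the difference of CKI from vehicle was -1.63 ± 0.27 (1.5e-05).

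MMP14, which activates proMMP2, had 995, 938 and 1063 CPM untreated, 893, 1033 and 1200 with vehicle and 1739, 1867 and 1836 with CKI. It was 0.86 ± 0.07 (5.1e-10) above untreated, inside the fold threshold. TIMP1 was at 161, 171 and 178 CPM untreated, 124, 118 and 130 with vehicle and 92.4, 96.5 and 95.8 with CKI. Its difference was -0.84 ± 0.06 (2.4e-11) from untreated and -0.39 ± 0.06 (7.4e-06) from vehicle. TIMP3 had 294, 285 and 306 CPM untreated, 388, 380 and 356 with vehicle and 370, 387 and 386 with CKI, so CKI stood 0.37 ± 0.05 (1.1e-06) above untreated and 0.02 ± 0.05 (0.71) above vehicle. MMP1 had 18, 20 and 11 counts untreated, 14, 25 and 6 with vehicle and 25, 29 and 20 with CKI, ranges that overlap, and its difference from untreated was 0.36 ± 0.37 (0.40).

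Of the 9 members tested in A431, 4 were DE genes under CKI against untreated (3 higher, 1 lower), where 22.4% of 15881 genes were, and the same 4 against vehicle, where 19.5% were. Vehicle against untreated gave 0 of 9 (background 2.54%) by edgeR, with TIMP1 at -0.46 ± 0.06, TIMP3 at 0.35 ± 0.05, MMP2 at -0.33 ± 0.07 and TIMP2 at 0.17 ± 0.05 below an adjusted p of 0.05. Those 4 were also the members with an unadjusted p under 0.05, and DESeq2 called 0. Medians over the 9 members were 0.37 for CKI against untreated and 0.59 against vehicle, and -0.08 for vehicle against untreated, beside 0.00 over all genes in each. Without vehicle control replicate 2, MMP1 was called against vehicle (1.10, adjusted p = 0.033). MMP3 had at most 7 counts in an A431 library and was under the filter. The fibroblast sum was 46.0 to 49.7 CPM with CKI, against 22.4 to 29.5 untreated, and the leukocyte sum 37.4 to 43.1 against 72.9 to 86.5. With CKI, 1 of the 7 fibroblast genes (DCN) was at 0, and 1 of the 6 leukocyte genes (PTPRC) was at 0 in both groups. The other genes of each list carried its sum. The endothelial sum was 38.0 to 40.9 against 22.0 to 25.6. Their part in these results was not tested.

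**Figure D3:**
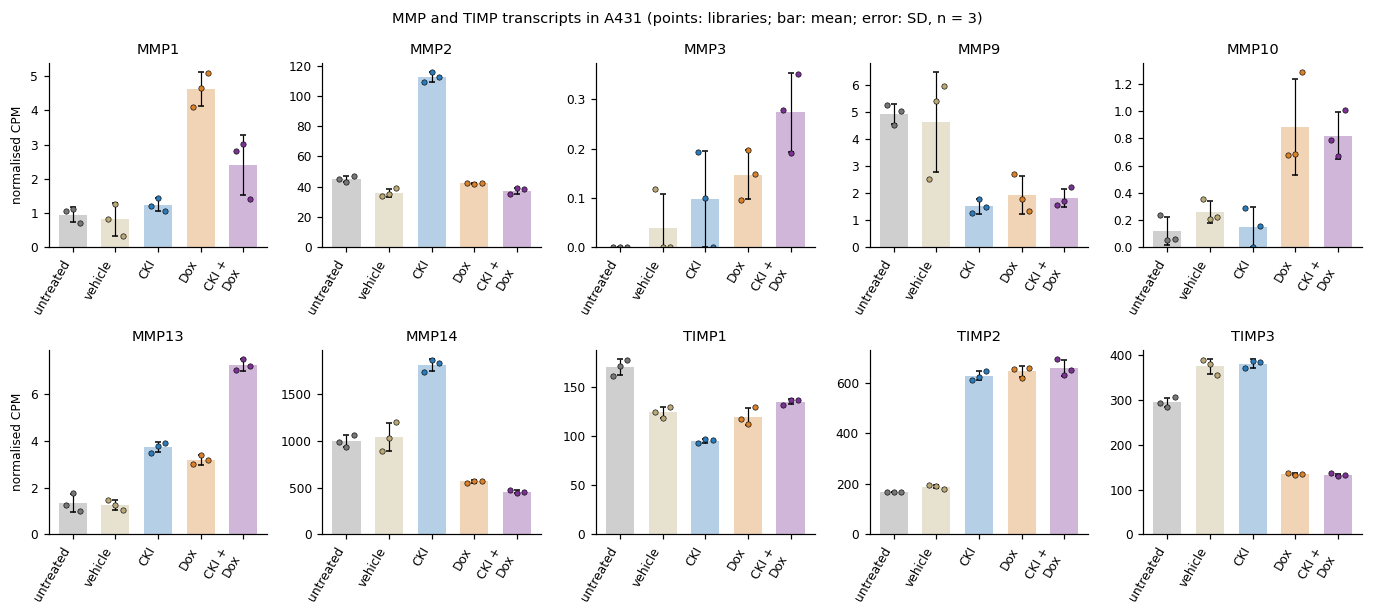
Normalised CPM of the 10 members in the 15 A431 libraries (points), with the mean (bar) and SD (n = 3) of each group; the vertical scale starts at 0 and differs between genes. TIMP2 is high in the CKI and both doxorubicin groups, MMP2 and MMP14 are highest with CKI alone, and MMP1 and MMP10 are highest in the doxorubicin groups.

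Doxorubicin raised MMP10, MMP1, MMP13 and TIMP2 and lowered MMP9 and TIMP3 in A431. MMP1 had 85, 95 and 103 counts with doxorubicin against 18, 20 and 11 untreated, or 4.63 ± 0.500 against 0.957 ± 0.228 CPM (SD, n = 3), with no overlap. The difference was 2.25 ± 0.29 (log2, SE; adjusted p = 2.9e-07). At this level WTAPP1, which shares exon bases with MMP1, had up to 12 counts in an A431 library. MMP10 had 14, 14 and 26 counts with doxorubicin against 4, 1 and 1 untreated, higher by 2.83 ± 0.59 (0.00016). It passed the filter only through both doxorubicin groups and so had to be higher there.

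TIMP2 reached 657, 621 and 659 CPM with doxorubicin, 1.95 ± 0.05 (6.5e-19) above untreated, and MMP13 62, 69 and 64 counts, 1.23 ± 0.19 (4.7e-06) above. TIMP3 fell to 137, 131 and 134 CPM, a difference of -1.14 ± 0.05 (5.6e-15), and MMP9 to 56, 36 and 27 counts, a difference of -1.34 ± 0.26 (6.5e-05). With library size alone as the normalization, which moved the 9 members by a median of 0.34, TIMP3 at -0.79 and MMP9 at -0.998 no longer passed the fold threshold. MMP14 had 553, 575 and 573 CPM (-0.82 ± 0.07, 1e-09) and TIMP1 118, 112 and 129.5 (-0.51 ± 0.06, 8.4e-08), both inside the fold threshold, and MMP2 had 42.2, 42.0 and 42.2 CPM (-0.10 ± 0.06, 0.15). Leaving out MMP10 for its filter, 5 of 8 members were DE genes, where 37.3% of all genes were, with a median of -0.30 over the 8 members beside 0.02 over all genes. The fibroblast sum was 42.9 to 48.4 CPM with doxorubicin and 58.0 to 64.4 with both agents, against 22.4 to 29.5 untreated. The leukocyte sum was 104 to 115 in both doxorubicin groups, and PTPRC, a leukocyte surface phosphatase, had 23 to 39 counts there and 0 in the other A431 groups. The endothelial sum was 10.6 to 12.8 with doxorubicin and 45.0 to 47.0 with both agents. Their part in these results was not tested.

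With both agents, MMP13 was higher than with doxorubicin alone, and the other 8 tested members differed from doxorubicin by less than the fold threshold. TIMP2 had 695, 633 and 650 CPM, TIMP3 136, 130 and 131, and MMP2 35.1, 38.8 and 38.2. Compared to doxorubicin, 1 of 9 members was a DE gene (background 14.9%), MMP13, which had 152, 157 and 143 counts and was higher by 1.18 ± 0.14 (adjusted p = 1.4e-07). MMP1 had 61, 63 and 28 counts, -0.93 ± 0.24 (0.0016) from doxorubicin. It was called as lower without doxorubicin replicate 1 (-1.01), CKI plus doxorubicin replicate 1 (-1.05) or CKI plus doxorubicin replicate 2 (-1.11). Compared to CKI alone, 3 of the 8 members other than MMP10 were called (background 25.7%). MMP10, which passed the filter only through the doxorubicin groups, had 17, 14 and 20 counts and was higher by 2.39 ± 0.54 (0.00046). MMP14 at 476, 442 and 454 CPM differed by -1.99 ± 0.08 (4.9e-16), MMP2 by -1.59 ± 0.06 (7.1e-16) and TIMP3 by -1.52 ± 0.05 (7.5e-17). MMP1, at 0.97 ± 0.29 (0.0054), passed the fold threshold without CKI replicate 2 (1.08) or CKI plus doxorubicin replicate 3 (1.22), and MMP13, at 0.96 ± 0.14 (1.7e-06), with RLE factors (1.01). The medians were -0.09 over 9 members against doxorubicin and 0.17 over 8 members against CKI, beside 0.03 and 0.05 over all genes. MMP3, untested, had 6, 4 and 7 counts with both agents against 0 in every untreated library. That is at least 4.61-fold higher, taking 3 counts over the untreated group as the floor, for counting error only.

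**Figure D4:**
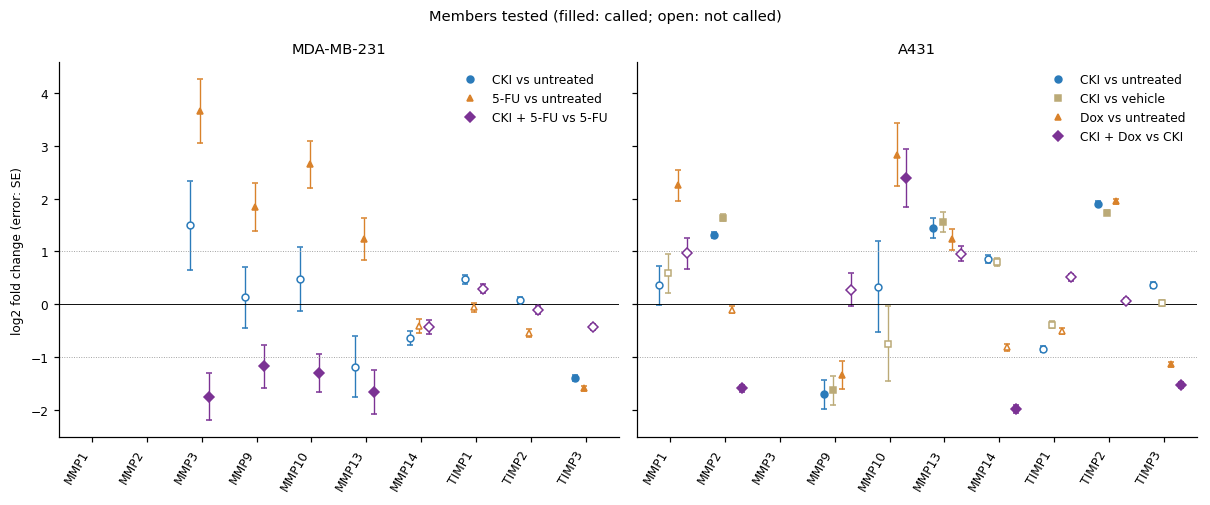
Log2 fold changes with SE of the members tested in 3 comparisons of MDA-MB-231 and 4 of A431; filled symbols were called, open symbols were not, dotted lines mark a log2 fold change of 1 either way, and MMP1 in MDA-MB-231 is left out because it was used in the selection. TIMP2 stands near 1.9 under CKI and under doxorubicin in A431, and TIMP3 at -1.40 under CKI and -1.59 under 5-FU in MDA-MB-231.

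The effect of CKI in A431 differed with doxorubicin present. The interaction, the effect of CKI with doxorubicin minus that without, was called in 6 of 9 members, where 19.5% of all genes were. The 9 include MMP10, uncalled at -0.44 ± 0.94 (adjusted p = 0.72), which passed the filter only through the doxorubicin groups. The median over the members, -0.44 beside 0.04 over all genes, is the value of this gene and is not read against the background. TIMP2 (-1.88 ± 0.07, log2 and SE, adjusted p = 7.1e-15), MMP2 (-1.49 ± 0.09, 5.3e-12) and MMP14 (-1.17 ± 0.11, 2.9e-09) were higher under CKI alone, by 1.91, 1.31 and 0.86, while CKI on top of doxorubicin gave 0.03, -0.17 and -0.31. MMP9 (1.62 ± 0.41, 0.0017) fell under CKI alone, but had 34, 36 and 44 counts with both agents and 56, 36 and 27 with doxorubicin. MMP1 gave -1.29 ± 0.44 (0.015), from 0.36 without doxorubicin to -0.93 with it. TIMP1 gave 1.01 ± 0.09 (1.1e-09), which is at the threshold. It ranged from 0.56 to 1.07 over 22 alternatives and missed the threshold in 11, among them leaving out untreated replicate 3 (0.99), CKI replicate 1 (0.99), doxorubicin replicate 1 (0.996) or doxorubicin replicate 2 (0.96).

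Responses to CKI differed between the lines in 7 of the 9 members other than MMP1, where 17.6% of the 16669 genes did. In MDA-MB-231, MMP2 was under the filter on low counts, and MMP3, MMP9, MMP10 and MMP13 had all libraries over it only with 5-FU. The count and the median given below are therefore not read against the background. The change in A431 minus that in MDA-MB-231 was 2.70 ± 0.57 (log2, SE; adjusted p = 3e-04) in MMP13, 1.91 ± 0.09 (2.7e-15) in TIMP2, 1.84 ± 0.07 (5.3e-17) in TIMP3, 1.58 ± 0.16 (5.5e-09) in MMP14 and 1.32 ± 0.44 (0.016) in MMP2. It was -1.24 ± 0.10 (2.8e-10) in TIMP1 and -1.76 ± 0.72 (0.045) in MMP9. The inhibitors thus changed in different ways: under CKI TIMP3 went from 896 to 340 CPM in MDA-MB-231 and from 295 to 381 in A431, TIMP2 from 731 to 769 and from 167 to 628, and TIMP1 from 334 to 465 and from 170.0 to 94.9. MMP1 went from 28.2 to 216 CPM in MDA-MB-231 and from 0.957 to 1.24 in A431, given without a test. The MMP13 difference includes an uncalled change of -1.18 ± 0.58 (adjusted p = 0.14) in MDA-MB-231, on at most 5 counts per library. Leaving out MMP3, for which untreated A431 had 0 counts, the median over 8 members was 1.45, beside 0.05 over all genes.

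Some of these calls depended on single libraries or settings. MMP2 lost its call without MDA-MB-231 untreated replicate 2 (adjusted p = 0.12), where it had 8 counts. MMP9 kept it without A431 untreated replicate 2, A431 CKI replicate 2 or MDA-MB-231 untreated replicate 3, and lost it without each of the other 9 libraries (adjusted p from 0.052 to 0.14). Without MDA-MB-231 untreated replicate 1 the count was 6. MMP9 also lost its call with GC and length offsets (adjusted p = 0.071, and 0.061 with the replicate block) and with vehicle in place of untreated (0.062). TIMP1 was inside the fold threshold with GC and length offsets (-0.84) and with vehicle in place of untreated (-0.77).

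**Figure D5:**
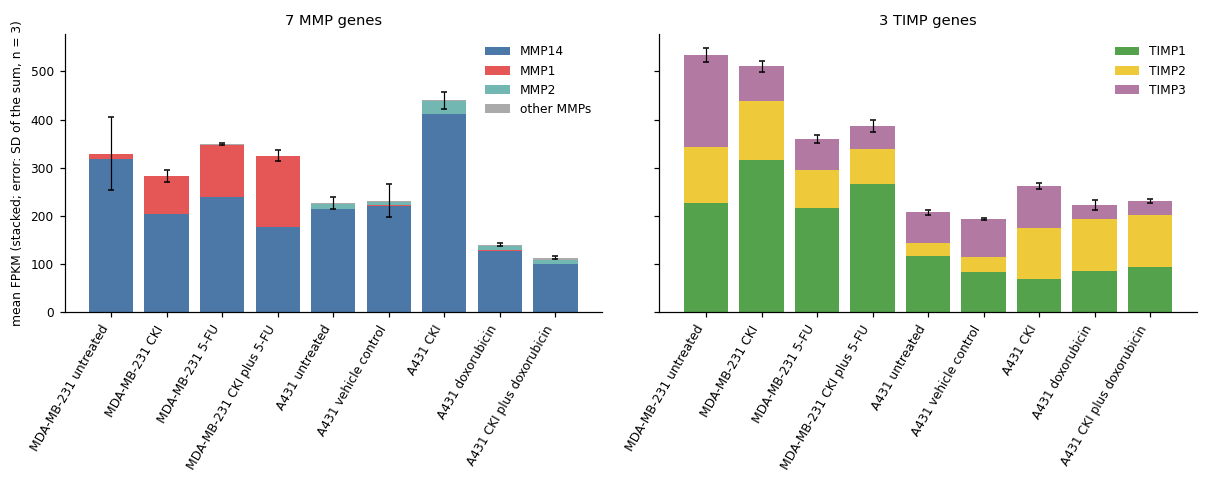
Mean FPKM of the MMP members (left) and TIMP members (right) of the set, stacked for the 9 groups, with the SD of the sum (n = 3). MMP14 is the largest share of the MMP column in every group, MMP1 takes 27.4% to 45.3% in treated MDA-MB-231, and TIMP2 replaces TIMP1 as the largest TIMP share in the CKI and both doxorubicin groups of A431.

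Summed per length over the MMP members of the set, MMP14 was the largest share in all 9 groups. MMP1 made up 3.08% of the summed MMP FPKM in untreated MDA-MB-231, 27.4% with CKI, 31.1% with 5-FU and 45.3% with both, and MMP14 went from 96.8% to 54.5%. In A431, MMP14 kept 88.6% to 95.5% in all 5 groups. TIMP2 went from 12.9% of the summed TIMP FPKM in untreated A431 to 40.5% with CKI, 48.1% with doxorubicin and 46.5% with both, compared to 15.4% with vehicle, whereas in MDA-MB-231 TIMP1 held 42.5% to 68.9%. The MMP sum divided by the TIMP sum was 0.618 ± 0.155 (SD, n = 3) in untreated MDA-MB-231, 0.553 ± 0.032 with CKI, 0.971 ± 0.0198 with 5-FU and 0.841 ± 0.00793 with both. The untreated libraries lay below both 5-FU groups. Untreated replicate 1, at 0.440, lay below the CKI libraries (0.517 to 0.578), and untreated replicates 2 and 3, at 0.687 and 0.727, lay above them. In A431 the ratio was 1.10 ± 0.0506 untreated, 1.195 ± 0.187 with vehicle, 1.68 ± 0.0336 with CKI, 0.630 ± 0.0319 with doxorubicin and 0.489 ± 0.00565 with both. The CKI libraries lay above, and both doxorubicin groups below, all untreated and vehicle libraries. These shares and ratios cover transcripts of the members only, leave out other MMP genes such as MMP15, and were not tested.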

How the data were processed

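RNA was sequenced from 27 unstranded libraries (9 groups, 3 replicates each, grouped by the sample labels). The authors deposited 1 table of gene counts that were not normalized. The submitters' processing notes name Trim Galore 0.3.7, STAR 2.5.3a and hg19 (GRCh37). The counting tool and annotation are not given in the sources used here. Of 24566 rows, 24422 were named through a RefSeq table (GRCh38.p14, names only), and 99.5% had exon lengths in the GRCh37 annotation. The members and gene lists were chosen with earlier results of these data known. The text names all 10 members and the 5 genes most like MMP1 in each line. From 3 lists it names called genes of some comparisons, within the 3 largest changes per list and comparison. Named outside this rule are TIMP4 under CKI in MDA-MB-231, MMP7 and MMP16 under doxorubicin, MMP15 in untreated A431, and MMP8 and MMP20.

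Counts were tested with edgeR 4.0.16 (R 4.3.3): TMM, filterByExpr (group minimum near 0.499 CPM in MDA-MB-231 and 0.531 in A431) and the quasi-likelihood F test, with all groups of a line in one fit, or all 27 libraries for comparisons of lines. Adjustment followed Benjamini-Hochberg over all genes tested. Log2 CPM for correlations used a prior count of 2. FPKM used the union of exons and TMM over all libraries. The fits were tested on simulated data. Same-numbered replicates did not pair. Alternatives were DESeq2 1.42.0, RLE factors, library size alone, no filter, at least 10 counts in every library, compared groups alone, vehicle in place of untreated, replicate block, GC and length offsets (lowess, span 0.3), and leaving out each replicate. The fold bound from a floor of 3 counts covers counting error only. Some results on the regulator list are not reported here.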

Additional observations from a re-analysis of the deposited data

Results flagged for a closer look

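Tests of a difference between differences picked out 14 results of the members, all on the log2 scale with SE and the Benjamini-Hochberg adjusted p of the edgeR fit. In MDA-MB-231, the effect of CKI on MMP3 was lower with 5-FU than without it (-3.24 ± 0.95, adjusted p = 0.022), on at most 24 counts per library. MMP3 passed the filter on low counts only through 5-FU alone, where it was highest, and the call was lost without CKI replicate 1 (adjusted p = 0.067).

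In A431, the effect of CKI differed with doxorubicin present in the gelatinases MMP2 (-1.49 ± 0.09, 5.3e-12) and MMP9 (1.62 ± 0.41, 0.0017), in MMP1 (-1.29 ± 0.44, 0.015) and MMP14 (-1.17 ± 0.11, 2.9e-09), and in the inhibitors TIMP1 (1.01 ± 0.09, 1.1e-09) and TIMP2 (-1.88 ± 0.07, 7.1e-15). Each of these was tested against the untreated group, and TIMP1 gave 0.56 with the vehicle control in its place.

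Between the lines, the effect of CKI in A431 minus that in MDA-MB-231 differed in MMP2 (1.32 ± 0.44, 0.016), MMP9 (-1.76 ± 0.72, 0.045), MMP13 (2.70 ± 0.57, 3e-04), MMP14 (1.58 ± 0.16, 5.5e-09), TIMP1 (-1.24 ± 0.10, 2.8e-10), TIMP2 (1.91 ± 0.09, 2.7e-15) and TIMP3 (1.84 ± 0.07, 5.3e-17). In the untreated and CKI libraries of MDA-MB-231, MMP2 had at most 8 counts, MMP9 13 and MMP13 5. No explanation was tested.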

How the results depend on the processing

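Of 233 recomputed counts of called members, 216 stayed within 1.5 times the count from the main settings (which holds MMP1 between lines and MMP10 in A431, 6 members each between lines and for doxorubicin), and of 2074 recomputed member values, 2003 kept their call and direction and 0 reversed. Requiring at least 10 counts in every library left only MMP14, TIMP1, TIMP2 and TIMP3 in the tests of MDA-MB-231 and between lines. In A431 it left MMP2, MMP9 and MMP13 besides. Then 1 member was called under 5-FU, 0 for CKI plus 5-FU against 5-FU and 0 for the interaction of CKI and 5-FU. Doxorubicin called 3 (TIMP3 stayed in the test at -0.97), and untreated lines differed in 2. The interaction of line and CKI was called in 4, every member left. With fewer members tested, these counts do not compare directly with those of the main settings. Leaving out single replicates gave 1 to 2 members for CKI in MDA-MB-231, 0 to 3 for the interaction of CKI and 5-FU, and 1 to 2 for CKI plus doxorubicin against doxorubicin. Libraries sharing a replicate number did not deviate together (correlation over 0.1 in 0 of 30 A431 pairs and 2 of 18 MDA-MB-231 pairs), so the numbers pair no samples. With the replicate block, the interaction of CKI and 5-FU was called in 2 members, and in 2 with GC and length offsets, alone or with the block. The replicates whose omission moved these counts were untreated replicate 1 or 3, CKI replicate 1 and 5-FU replicate 2 in MDA-MB-231, and doxorubicin replicate 1 and CKI plus doxorubicin replicates 1 and 2 in A431.

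Depth limits MMP2, MMP9 and MMP13 in MDA-MB-231, MMP3 in both lines and, outside the 5-FU or doxorubicin groups, MMP10.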

Other observations

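Of the other 17 MMP and TIMP genes, 15 had a row in the table. CKI raised MMP16, a membrane-type MMP, by 3.51 ± 0.27 (log2, SE; adjusted p = 4.8e-11) and TIMP4 by 1.18 ± 0.27 (0.00055) in A431, which were 2 of the 9 tested, where 22.4% of all genes were called. Against vehicle, 5 of 9 were called, all higher, where 19.5% of all genes were, with MMP16 at 2.58 ± 0.23 (8.2e-10). Doxorubicin called 5 of the 9, where 37.3% of all genes were called, and the largest changes were in MMP24 (3.27 ± 0.33, 4.5e-09), MMP19 (2.70 ± 0.54, 8.8e-05) and MMP17 (-2.40 ± 0.16, 3.4e-12). Untreated A431 libraries had 2 to 10 counts of MMP24, 0 to 8 of MMP19 and 4 to 6 of MMP16. With doxorubicin they were 80 to 90, 25 to 29 and 17 to 30. The filter on low counts thus favoured a rise in these genes, and the counts of called genes in A431 are not read against the background. In MDA-MB-231, CKI called 4 of 10 (5.96% of all genes), MMP17 (1.96 ± 0.29, 0.00026), MMP7 (-1.77 ± 0.48, 0.012), MMP15 (1.07 ± 0.22, 0.0028) and, named outside the rule, TIMP4 (1.02 ± 0.27, 0.01). 5-FU called 2 (13.3% of all genes), MMP11 (-2.80 ± 0.31, 1.1e-05) and MMP15 (-1.004 ± 0.24, 0.0034). MMP15 had 177 to 442 counts in untreated libraries and 166 to 197 with 5-FU. Untreated libraries had 8 to 27 counts of MMP17 and 21 to 45 of TIMP4. The calls of these genes in MDA-MB-231 were not recomputed without untreated replicate 1, which stood apart.

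In the chromosome 11 cluster, MMP8 had 0 counts in all untreated, vehicle and CKI libraries of A431, 4 to 10 with doxorubicin and 4 to 8 with CKI plus doxorubicin. MMP20 had 0 in untreated and CKI libraries, at most 1 with vehicle, 3 to 5 with doxorubicin and 9 to 11 with both. Both genes were under the filter of the A431 fit and were not tested there. MMP7, a matrilysin at the end of the cluster, had 32.2 ± 0.902 CPM (SD, n = 3) untreated and 71.8 ± 3.04 with doxorubicin (1.15 ± 0.07, adjusted p = 2.2e-13).

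Among regulators of MMP activity, CKI in A431 raised PLAU, the urokinase (2.02 ± 0.05, 7.3e-19), and THBS1 (1.00 ± 0.06, 4.9e-13). Vehicle against untreated also called THBS1 (1.22 ± 0.06, 2.1e-13), and CKI against vehicle called PLAU (1.47 ± 0.05, 1.3e-16). In MDA-MB-231, 5-FU raised TFPI2, a protease inhibitor of the matrix, by 1.95 ± 0.11 (5.2e-08).

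Of 12 AP-1 and ETS factor genes, vehicle called 4 in A431 against untreated, all higher, led by ATF3 (5.16 ± 0.12, 3.3e-19), FOSB (4.46 ± 0.11, 2.8e-18) and FOS (2.503 ± 0.09, 8.9e-16), where 2.54% of all genes were called. CKI against untreated called 5 (22.4% of all genes) and CKI against vehicle 0 by edgeR (19.5%), with 7 at an unadjusted p under 0.05. These are comparisons that share control libraries. In MDA-MB-231, 5-FU lowered FOS by -3.80 ± 0.13 (1.8e-09) and FOSB by -3.04 ± 0.23 (5.7e-07) and raised ATF3 by 1.34 ± 0.07 (2.7e-08). There CKI called 0 of 12 by edgeR (5.96% of all genes), with 3 at an unadjusted p under 0.05.

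Over the 12 MDA-MB-231 libraries, the genes whose log2 CPM followed MMP1 most closely were TAGLN3 and MITF (Pearson's r = 0.992 each), LOC100288175 and LINC01204 (0.990 each) and TNFSF15 (0.989), while TIMP3 had r = -0.994. Over the 15 A431 libraries they were TRIM54 (0.953), SEMA3G (0.948), SDCBP2-AS1 (0.943), RALY-AS1 and TEKT2 (0.932 each). Libraries of a group share their treatment, so these values describe group patterns and carry no test.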
